A study of Homo sapiens with 12 samples.

Results

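The genes described here are 10 regulators of the G1 phase of the cell cycle, followed in human MDA-MB-231 cells before and after stimulation. They were chosen by name from the deposited table, which holds 24331 features, and each of the 10 symbols was found in 1 feature. They comprise the D-type cyclins CCND1 and CCND3, their kinases CDK4 and CDK6, the E-type cyclins CCNE1 and CCNE2, the Cip/Kip inhibitors CDKN1A and CDKN1B, and the INK4 inhibitors CDKN2C and CDKN2D. MDA-MB-231 is an established triple-negative breast cancer line. The study asked how the transcription factor ETS1 is controlled and what it does in this line, and measured RNA in WT and ΔCRE cells. Each genotype was sampled in 2 biological replicates without stimulation (0 h) and after 6 or 24 h with PMA/Ionomycin. PMA is a phorbol ester that activates protein kinase C, and Ionomycin carries calcium into cells. ΔCRE cells are the same line after a CRISPR/Cas9 deletion of the NFAT and NF-κB sites in the core-regulatory element (CRE) of the ETS1 promoter, a change that leaves the ETS1 coding sequence in place. WT cells carry no deletion, both genotypes received the same stimulation, and the 0 h libraries are the unstimulated ones. There is no unstimulated library at 6 or 24 h, so stimulation and time in culture cannot be told apart. How many clones stand behind the ΔCRE libraries is not given in the sources used here, so the deletion and a difference between clones cannot be told apart.

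A cell that leaves G1 does so when cyclin-dependent kinases phosphorylate the retinoblastoma protein RB1, which then releases E2F transcription factors to switch on the genes of DNA synthesis. D-type cyclins, made in response to growth signals, bind CDK4 and CDK6 and begin this step, and E-type cyclins complete it with CDK2. INK4 inhibitors bind CDK4 and CDK6 and keep D-type cyclins off them. Cip/Kip inhibitors bind assembled cyclin-kinase complexes and block above all those with CDK2. In breast cancer the pathway is known for amplified CCND1 and for drugs that inhibit CDK4 and CDK6.

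Expression was given as FPKM, a fragment count that the authors scaled to the length of the transcript and to the mapped total of the library. The depth of a library is not kept in such values, so no counting interval can be given. The step between the lowest values put the depth of the libraries at between 0.732 and 1.19 times that of WT 0 h replicate 1. This estimate assumes that no scaling between libraries was applied, which is not given. The commonest ratio to WT 0 h replicate 1 held for between 32.0% (WT 6 h replicate 1) and 66.9% (ΔCRE 24 h replicate 1) of the low features used. In 11 libraries the FPKM values summed to between 566255 and 651080, all 5 markers fixed for MDA-MB-231 (VIM, CD44, EGFR, CAV1, AXL) were at 1 FPKM or more, and none of 8 gut epithelium markers was, their sum lying between 0.0395 and 0.371 FPKM. The library labelled ΔCRE 0 h replicate 1 stood apart. Its values summed to 1423335, and its 8 gut epithelium markers were all at 1 FPKM or more with a sum of 4421 FPKM. The 5 MDA-MB-231 markers were at 1 FPKM or more in this library as well. They summed to 1442 FPKM, against between 1830 and 3154 FPKM in the other libraries. In the same library 9 markers of luminal breast epithelium summed to 9288 FPKM against between 693 and 1114 FPKM in the other libraries. KRT8 (3568 FPKM), KRT18 (2678 FPKM), KRT19 (1848 FPKM) and EPCAM (1139 FPKM) held most of that sum, and CDH1 was at 52.3 FPKM. The remaining markers of that list were not raised alike. ESR1 was at 0, PGR at 0.0128 FPKM, GATA3 at 2.38 FPKM (WT 0 h 2.35 and 2.83 FPKM) and FOXA1 at 1.24 FPKM (WT 0 h 1.30 and 1.79 FPKM). Pearson's r between the replicates of a condition, across features, was 0.867 at ΔCRE 0 h and between 0.978 and 0.984 elsewhere. This library is therefore shown apart, and ΔCRE cells at 0 h are represented by replicate 2 alone, without a test. ETS1, whose element was deleted, was at 24.0 and 23.7 FPKM in the WT 0 h libraries, at 139 and 145 FPKM at 6 h and at 36.2 and 39.7 FPKM at 24 h. In ΔCRE cells ETS1 was at 62.8 and 62.2 FPKM at 6 h and at 29.3 and 30.7 FPKM at 24 h, below both WT libraries at each time, and at 16.5 FPKM in replicate 2 at 0 h.

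In WT cells at 6 h both D-type cyclins rose, both E-type cyclins fell, and the Cip/Kip inhibitors moved in opposite directions. After 6 h with PMA/Ionomycin the inhibitor CDKN1A was at 10.2 times its 0 h level in mean FPKM. CDK6, CCND1 and CCND3 rose by less, whereas the inhibitors CDKN2C and CDKN1B and both E-type cyclins fell. Differences were tested with limma on log2(FPKM + 1) over the 11 libraries, with p-values adjusted by the Benjamini-Hochberg method over 11256 features that had a mean of at least 1 FPKM, all 10 members among them, and a call needed an adjusted p under 0.05. Changes of genes with low FPKM come out too small on this scale. At 6 h against 0 h in WT cells 8 of the 10 members passed, 4 higher and 4 lower, where 44.4% of all features passed, 23.3% higher and 21.1% lower. At 24 h against 0 h 8 of 10 passed, 2 higher and 6 lower, with 54.6% of all features called, 26.5% higher and 28.2% lower. From 6 to 24 h 6 of 10 members passed in WT cells, 1 higher and 5 lower, beside 46.8% of all features, 20.5% higher and 26.3% lower. In ΔCRE cells 5 of 10 passed, all of them lower, beside 49.6% of all features, 22.1% higher and 27.5% lower. Of those 11 calls between 6 and 24 h only CDKN2C in WT cells was a rise. The WT groups at 6 and 0 h did not overlap for any of the 10 members, nor did those at 24 and 0 h, but with 2 libraries a group this held for 72.3% and 76.7% of all features. Between 6 and 24 h the groups were apart for 9 members in WT and 8 in ΔCRE cells, beside 76.2% and 74.4% of all features. With the library labelled ΔCRE 0 h replicate 1 in the fit the fold changes of these comparisons were the same and the estimated spread was wider, and 5, 4, 1 and 2 members passed in these 4 comparisons, of 903, 1285, 636 and 911 features.

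**Figure D1:**
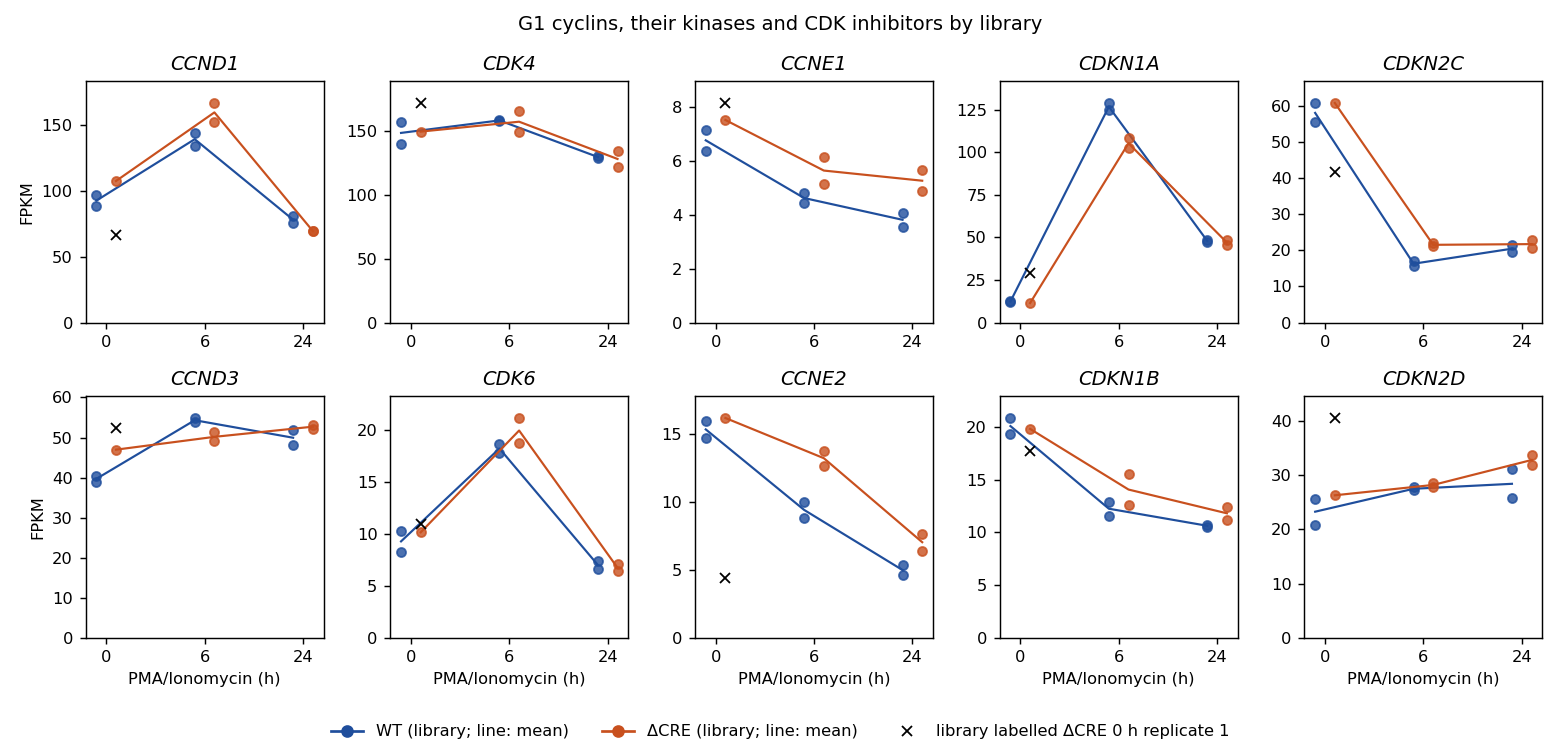
Expression in FPKM (vertical axis, from 0) of the 10 members against hours of PMA/Ionomycin (horizontal axis, spaced evenly), with 1 point per library, lines through the group means of WT (blue) and ΔCRE (orange) cells, and a cross for the library labelled ΔCRE 0 h replicate 1. CDKN1A is lowest at 0 h and highest at 6 h in both genotypes, CDKN2C is highest at 0 h, and the cross lies far from the WT 0 h points for CCNE2 (4.37 FPKM), CDKN1A (29.0 FPKM) and CDKN2D (40.6 FPKM).

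Both D-type cyclins rose at 6 h, and at 24 h CCND3 was still above its unstimulated level while CCND1 was below it. CCND1, the partner of CDK4 and CDK6 made in response to growth signals, lies on chromosome 11 of hg19 (69455873-69469242). It was at 88.7 and 96.8 FPKM in WT cells at 0 h, at 145 and 134 FPKM at 6 h and at 80.9 and 75.5 FPKM at 24 h. The 6 h libraries were the highest and the 24 h libraries lay below those at 0 h. The log2 fold change was 0.58 at 6 h (SE 0.070, adjusted p = 0.00027, limma) and −0.24 at 24 h (SE 0.070, adjusted p = 0.0178, limma). In ΔCRE cells CCND1 was at 153 and 167 FPKM at 6 h and at 69.6 and 69.7 FPKM at 24 h, above both WT libraries at 6 h and below both at 24 h. The fall between these times was −1.19 in ΔCRE cells (SE 0.070, adjusted p = 7.7e-06, limma) and −0.83 in WT cells (SE 0.070, adjusted p = 5.3e-05, limma). CCND3, on chromosome 6 (41902671-42016610), encodes the D-type cyclin best known from blood cells. Its WT libraries held 40.4 and 38.9 FPKM at 0 h, 54.9 and 53.8 FPKM at 6 h and 51.8 and 48.1 FPKM at 24 h. Neither stimulated group overlapped with the unstimulated one, and the log2 fold change was 0.44 at 6 h (SE 0.055, adjusted p = 0.00032, limma) and 0.32 at 24 h (SE 0.055, adjusted p = 0.0013, limma). In ΔCRE cells CCND3 was at 51.3 and 49.0 FPKM at 6 h and at 53.2 and 52.2 FPKM at 24 h, and the rise of 0.07 in log2 from 6 to 24 h did not pass (adjusted p = 0.320, limma), although it did under TPM (0.17, adjusted p = 0.0193) and quantile normalization (0.21, adjusted p = 0.0097). CCND1 made up 70.0% ± 1.84 (SD, n = 2) of the summed FPKM of both genes in WT cells at 0 h, 72.0% ± 0.749 at 6 h and 61.03% ± 0.0772 at 24 h. CCND2, the remaining D-type cyclin, was listed at 0 in 10 of the 11 libraries and at 0.0075 FPKM in ΔCRE 24 h replicate 2. The call for CCND1 at 24 h against 0 h was lost without WT 0 h replicate 2 (adjusted p = 0.107), without WT 24 h replicate 2 (adjusted p = 0.106) and with quantile normalization (adjusted p = 0.0824), all by limma. With all 12 libraries CCND1 passed at neither time against 0 h (adjusted p = 0.129 and 0.508, limma), nor between 6 and 24 h in WT cells (adjusted p = 0.0516), but did so in ΔCRE cells (adjusted p = 0.0123). In that fit CCND3 passed at 6 h (adjusted p = 0.0260) but not at 24 h (adjusted p = 0.0658).

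Of the kinases that D-type cyclins activate, CDK6 rose and fell with CCND1 while CDK4 moved little. CDK6, on chromosome 7 (92234235-92465941), was at 8.25 and 10.3 FPKM in WT cells at 0 h, at 18.7 and 17.8 FPKM at 6 h and at 6.58 and 7.43 FPKM at 24 h. Both 6 h libraries were above, and both 24 h libraries below, the unstimulated ones. The log2 fold change was 0.91 at 6 h (SE 0.11, adjusted p = 0.00026, limma) and −0.36 at 24 h (SE 0.11, adjusted p = 0.0227, limma). In ΔCRE cells CDK6 went from 18.8 and 21.2 FPKM at 6 h to 6.41 and 7.06 FPKM at 24 h, a log2 fold change of −1.44 (SE 0.11, adjusted p = 2.6e-05, limma), beside −1.27 in WT cells (SE 0.11, adjusted p = 5.6e-05, limma). CDK4, the more abundant kinase at this RNA level per length, was at 157 and 140 FPKM at 0 h, at 158 and 159 FPKM at 6 h and at 129 and 130.2 FPKM at 24 h in WT cells. The higher 0 h library nearly reached the 6 h libraries, and the 24 h libraries were the lowest. Neither 6 h (log2 fold change 0.09, 95% interval −0.08 to 0.27, adjusted p = 0.355) nor 24 h (−0.19, 95% interval −0.37 to −0.01, adjusted p = 0.0647) passed against 0 h by limma. Under TPM and quantile normalization the 6 h value turned to −0.03. Between 6 and 24 h CDK4 fell by 0.29 in log2 in WT cells (SE 0.078, adjusted p = 0.0163, limma) and by 0.29 in ΔCRE cells (SE 0.078, adjusted p = 0.0135, limma), where its libraries held 166 and 149 FPKM and then 134 and 122 FPKM. Both falls were lost with quantile normalization (adjusted p = 0.144 and 0.134) and with all 12 libraries (adjusted p = 0.234 and 0.197, limma). The WT fall was also lost without any single one of its 4 libraries (WT 6 h replicate 1, WT 6 h replicate 2, WT 24 h replicate 1 and WT 24 h replicate 2), with an adjusted p between 0.0598 and 0.0727, and the ΔCRE fall without ΔCRE 6 h replicate 1 (adjusted p = 0.0894) and without ΔCRE 24 h replicate 2 (adjusted p = 0.0878). At 24 h against 0 h CDK4 passed without WT 0 h replicate 2 (log2 fold change −0.28, adjusted p = 0.0349) and under TPM (adjusted p = 0.0123). The fall of CDK6 at 24 h was lost without WT 0 h replicate 2 (−0.21, adjusted p = 0.151), without WT 24 h replicate 1 (−0.28, adjusted p = 0.136), under TPM (adjusted p = 0.0516), in a fit of both groups alone (adjusted p = 0.0818) and with all 12 libraries (adjusted p = 0.134, limma). The CDK4 feature shares its interval on chromosome 12 (58138784-58146230) with TSPAN31 on the opposite strand, at 4.56 FPKM in WT cells at 0 h, and whether strand was used in counting is not given in the sources used here.

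The E-type cyclins, which drive CDK2 at the entry to S phase, both fell. CCNE2, on chromosome 8 in a feature that spans 95835518-95907482 together with INTS8 of the opposite strand, was at 14.7 and 15.98 FPKM in WT cells at 0 h, at 8.85 and 9.98 FPKM at 6 h and at 4.58 and 5.38 FPKM at 24 h. No group overlapped with another, and each time was below the one before it. The log2 fold change was −0.65 at 6 h (SE 0.10, adjusted p = 0.0012, limma) and −1.45 at 24 h (SE 0.10, adjusted p = 1.1e-05, limma). INTS8 was at 12.7, 8.22 and 12.3 FPKM in mean over the same groups. At 6 h it was at 0.647 times its 0 h level, where CCNE2 was at 0.613 times, but it did not share the further fall of CCNE2 at 24 h. The use of strand in counting is not given here either, and a share of INTS8 in the CCNE2 values was not tested. In ΔCRE cells CCNE2 was at 12.7 and 13.8 FPKM at 6 h and at 6.42 and 7.65 FPKM at 24 h, a log2 fold change of −0.83 (SE 0.10, adjusted p = 0.00032, limma) where WT cells had −0.80 (SE 0.10, adjusted p = 0.00043, limma). CCNE1, on chromosome 19 (30302901-30315215), was the less abundant of the pair at 7.14 and 6.38 FPKM at 0 h, 4.45 and 4.80 FPKM at 6 h and 3.55 and 4.07 FPKM at 24 h in WT cells. Its 0 h libraries were both above all stimulated ones, and its log2 fold change was −0.46 at 6 h (SE 0.11, adjusted p = 0.0076, limma) and −0.69 at 24 h (SE 0.11, adjusted p = 0.00077, limma). In ΔCRE cells CCNE1 was at 5.14 and 6.15 FPKM at 6 h and at 5.66 and 4.87 FPKM at 24 h, where the groups overlapped. Their difference of −0.08 did not pass (adjusted p = 0.545, limma). Without WT 6 h replicate 1 the 6 h call of CCNE1 was lost (adjusted p = 0.0561, limma). The 2 ΔCRE libraries of 0 h differed most in CCNE2 among the members, with 16.2 FPKM in replicate 2 against 4.37 FPKM in the other. With both in the fit CCNE2 passed in no comparison. Its adjusted p against 0 h was then 0.493 after 6 h and 0.0746 after 24 h, and between 6 and 24 h it was 0.372 for WT and 0.327 for ΔCRE cells (limma). The CCNE1 call at 6 h was lost in that fit too (adjusted p = 0.0769), and that at 24 h was kept (adjusted p = 0.0144).

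The Cip/Kip inhibitors moved apart, CDKN1A up and CDKN1B down. CDKN1A encodes p21, a transcriptional target of p53 that also responds to other signals, and lies on chromosome 6 (36644237-36655116). It was at 12.8 and 11.96 FPKM in WT cells at 0 h, at 129 and 125 FPKM at 6 h and at 48.4 and 47.5 FPKM at 24 h. The replicates lay close together at each time and no groups overlapped. The log2 fold change of 3.26 at 6 h (SE 0.058, adjusted p = 2.6e-09, limma) had the largest size among the members, and at 24 h it was 1.87 (SE 0.058, adjusted p = 1.3e-07, limma). In ΔCRE cells CDKN1A was at 11.5 FPKM in replicate 2 at 0 h, at 108 and 102 FPKM at 6 h and at 48.2 and 45.7 FPKM at 24 h. It fell from 6 to 24 h by 1.38 in log2 in WT cells (SE 0.058, adjusted p = 1.5e-06, limma) and by 1.15 in ΔCRE cells (SE 0.058, adjusted p = 3.2e-06, limma). CDKN1B encodes p27, an inhibitor that is high in resting cells and is controlled mainly through the stability of the protein. On chromosome 12 (12870302-12875305), it was at 19.4 and 20.9 FPKM in WT cells at 0 h, at 12.9 and 11.6 FPKM at 6 h and at 10.6 and 10.7 FPKM at 24 h. The unstimulated libraries were the highest, and the log2 fold change was −0.67 at 6 h (SE 0.10, adjusted p = 0.0009, limma) and −0.86 at 24 h (SE 0.10, adjusted p = 0.00017, limma). In ΔCRE cells CDKN1B was at 19.9 FPKM in replicate 2 at 0 h, at 12.6 and 15.5 FPKM at 6 h and at 12.4 and 11.2 FPKM at 24 h, and the difference between 6 and 24 h passed in neither genotype (log2 fold change −0.19, adjusted p = 0.159 in WT cells and −0.23, adjusted p = 0.0888 in ΔCRE cells, limma). Without ΔCRE 6 h replicate 1, its lower 6 h library, the latter was −0.37 with an adjusted p of 0.0207. CDKN1A made up 38.1% ± 2.41 (SD, n = 2) of the summed FPKM of the pair in WT cells at 0 h, 91.2% ± 0.436 at 6 h and 81.8% ± 0.352 at 24 h, while the sum itself went from 32.5 to 139 and 58.6 FPKM. With all 12 libraries every one of the 4 calls of this pair against 0 h was kept, the highest adjusted p being 0.0169, and the falls of CDKN1A between 6 and 24 h were lost (adjusted p = 0.0510 in WT and 0.0764 in ΔCRE cells, limma). The values are averages over all cells of a library, so a change in each cell and a change in the share of cells that express a gene cannot be told apart.

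The 250 bases before the RefSeq start (GRCh38.p14, a later build than hg19) are given for the 3 members that were called at 6 h and have a single start in that table: CDKN1A, which rose (chr6:36678464-36678713, plus strand), and CDKN1B (chr12:12717118-12717367, plus strand) and CCNE1 (chr19:29811741-29811990, plus strand), which fell. A link between these bases and the courses of the genes was not tested. Capitals mark the GC box GGGCGG, the core of the site bound by SP1 family factors, or its reverse complement.
CDKN1A: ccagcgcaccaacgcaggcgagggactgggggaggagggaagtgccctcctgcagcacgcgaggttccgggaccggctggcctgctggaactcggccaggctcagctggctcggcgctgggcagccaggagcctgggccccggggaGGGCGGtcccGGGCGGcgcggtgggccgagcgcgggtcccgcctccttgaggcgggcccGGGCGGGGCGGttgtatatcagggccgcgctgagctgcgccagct
CDKN1B: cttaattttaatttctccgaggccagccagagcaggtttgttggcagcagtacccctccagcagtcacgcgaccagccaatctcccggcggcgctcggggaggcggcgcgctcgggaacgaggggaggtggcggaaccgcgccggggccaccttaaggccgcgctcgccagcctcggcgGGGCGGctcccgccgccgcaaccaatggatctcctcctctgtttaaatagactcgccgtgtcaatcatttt
CCNE1: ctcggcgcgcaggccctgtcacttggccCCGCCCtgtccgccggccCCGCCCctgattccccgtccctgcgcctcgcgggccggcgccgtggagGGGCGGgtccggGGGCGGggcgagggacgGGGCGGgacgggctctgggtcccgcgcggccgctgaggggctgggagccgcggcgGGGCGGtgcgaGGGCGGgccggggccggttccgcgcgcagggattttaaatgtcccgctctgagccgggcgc
The CDKN1A window holds 4 GC boxes, between bases −104 and −35 counted from the base before the start as −1, and the last 2 of them overlap by 1 base at −40. The CDKN1B window holds 1, from −71 to −66, and the CCNE1 window 7, from −222 to −56, of which 2 are on the minus strand. At least 1 GC box was found in 42.6% of all 35116 windows of this length in the table. NF-κB sites were searched for by name and occurred in 5.21% of all windows, AP-1 sites in 6.57%, ETS sites in 8.52% and E2F sites in 2.79%, and none of these was found in the 3 windows shown. A match is a run of letters and not a shown site, and its absence from this stretch says nothing of the factor. Of the 10 members 8 had an entry in the table, and CCND1 and CCNE2 had none.

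**Figure D2:**
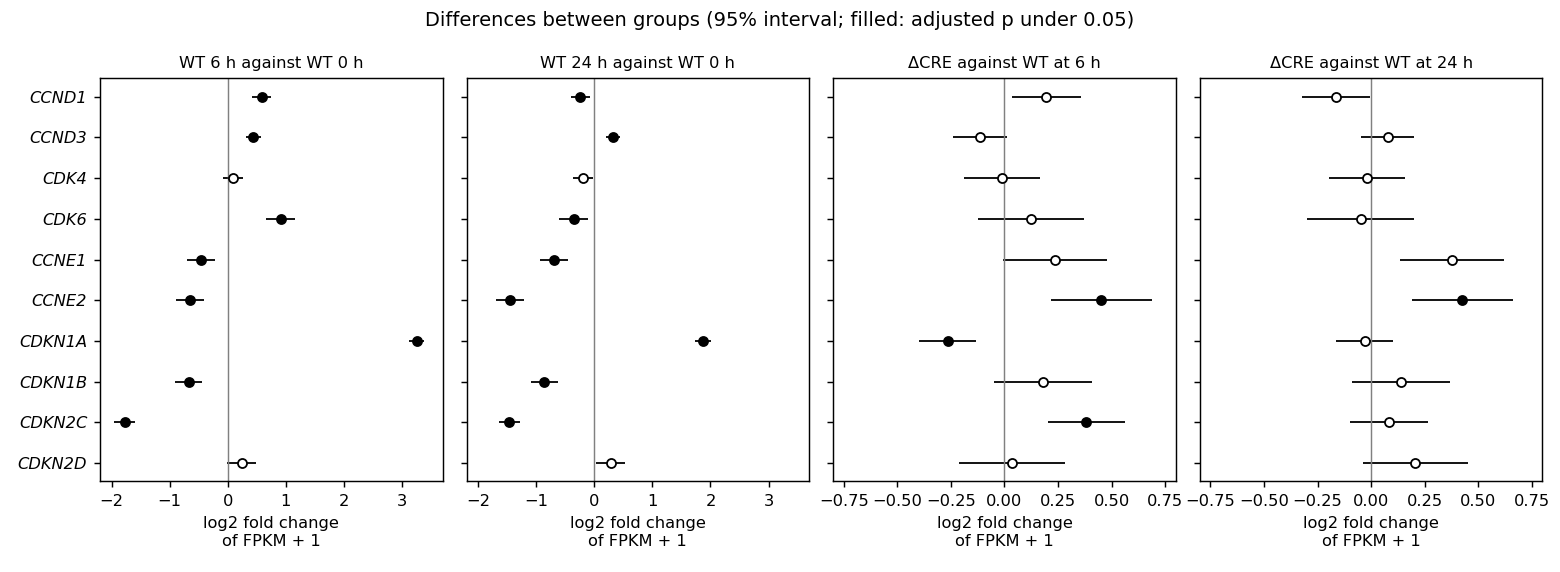
Log2 fold change of FPKM + 1 (horizontal axis) for each member (vertical axis) in 4 comparisons, with the 95% interval of limma's fit over 11 libraries and filled points where the adjusted p was under 0.05. The axes of the ΔCRE against WT panels span a narrower range, and CDKN1A at 6 h in WT cells, at 3.26, lies farthest from 0.

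The INK4 inhibitors, which hold CDK4 and CDK6 inactive, differed as well. CDKN2C encodes p18 and lies on chromosome 1 (51434367-51440309). It was at 60.8 and 55.5 FPKM in WT cells at 0 h, at 17.0 and 15.7 FPKM at 6 h and at 21.5 and 19.5 FPKM at 24 h. Both unstimulated libraries were far above every stimulated one, and the 24 h libraries lay a little above those of 6 h. The log2 fold change was −1.77 at 6 h (SE 0.079, adjusted p = 9.0e-07, limma) and −1.46 at 24 h (SE 0.079, adjusted p = 2.6e-06, limma), and the rise from 6 to 24 h was 0.31 (SE 0.079, adjusted p = 0.0123, limma). In ΔCRE cells CDKN2C was at 60.9 FPKM in replicate 2 at 0 h, at 21.1 and 22.0 FPKM at 6 h and at 22.9 and 20.7 FPKM at 24 h, and its stimulated groups overlapped (log2 fold change 0.01, adjusted p = 0.923, limma). CDKN2D encodes p19 and lies on chromosome 19 (10677138-10679655). Its WT libraries held 25.7 and 20.9 FPKM at 0 h, 27.8 and 27.3 FPKM at 6 h and 31.1 and 25.8 FPKM at 24 h. Both stimulated groups were above the unstimulated one, at 24 h only just, and the log2 fold change of 0.24 at 6 h (95% interval −0.01 to 0.48, adjusted p = 0.103) and of 0.28 at 24 h (0.03 to 0.52, adjusted p = 0.0547) did not pass by limma. It did pass without WT 0 h replicate 1, the higher unstimulated library, at 0.38 (adjusted p = 0.0250) and 0.42 (adjusted p = 0.0136), and without WT 24 h replicate 2 at 24 h, at 0.41 (adjusted p = 0.0224). At 24 h it also passed under TPM (adjusted p = 0.0355) and with a mean of at least 5 FPKM (adjusted p = 0.0486). In ΔCRE cells CDKN2D was at 27.8 and 28.7 FPKM at 6 h and at 33.7 and 32.0 FPKM at 24 h (log2 fold change 0.21, adjusted p = 0.135, limma). That difference passed under TPM (0.31, adjusted p = 0.0259), quantile normalization (0.31, adjusted p = 0.0392) and in a fit of both groups alone (adjusted p = 0.0475). CDKN2C made up 71.5% ± 1.71 (SD, n = 2) of the summed FPKM of the pair in WT cells at 0 h, 37.2% ± 1.05 at 6 h and 41.9% ± 1.52 at 24 h. Of the INK4 family, CDKN2A and CDKN2B were listed at 0 in all 11 libraries. The rise of CDKN2C from 6 to 24 h was lost without WT 6 h replicate 2 (adjusted p = 0.0851), without WT 24 h replicate 1 (adjusted p = 0.0884) and with all 12 libraries (adjusted p = 0.371), whereas its falls against 0 h passed in all 12 (adjusted p = 0.00061 and 0.0018, limma).

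**Figure D3:**
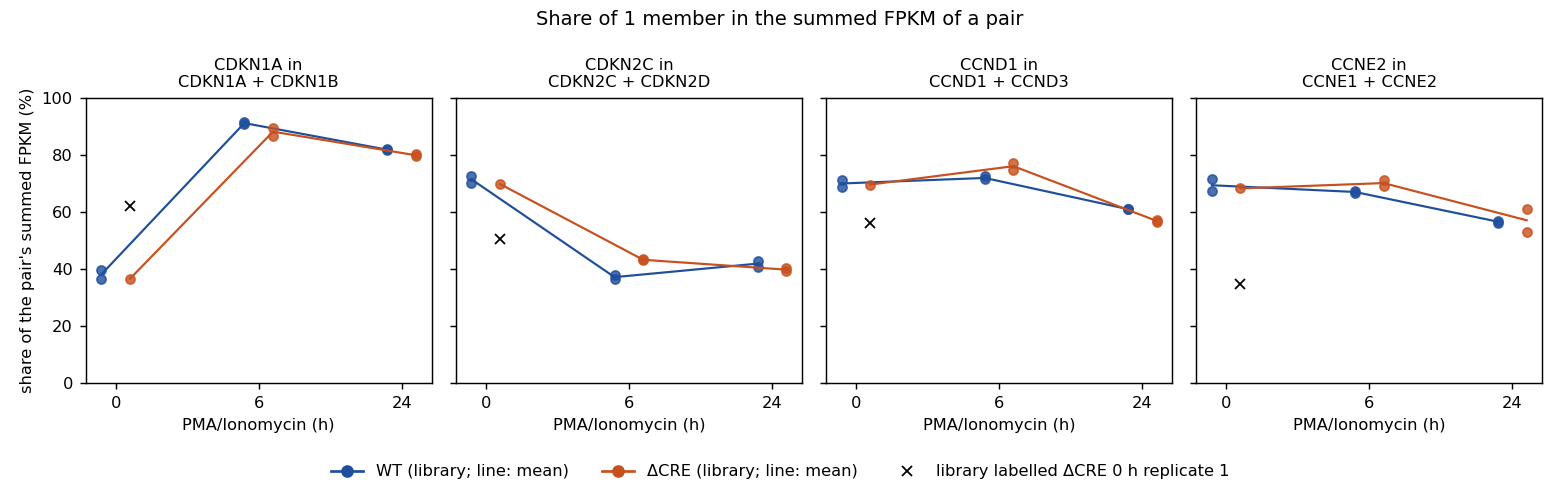
Share of 1 gene in the summed FPKM of 2 related genes, in percent (vertical axis, 0 to 100), by library and hour of PMA/Ionomycin, with lines through the means of WT (blue) and ΔCRE (orange) cells and a cross for the library labelled ΔCRE 0 h replicate 1. The share of CDKN1A in the Cip/Kip pair goes from 38.1% to 91.2% in WT cells and that of CDKN2C in the INK4 pair from 71.5% to 37.2% between 0 and 6 h.

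At 6 h CCNE2 and CDKN2C were higher and CDKN1A lower in ΔCRE than in WT cells. Each difference was smaller in log2 than the change of the same gene in WT cells between 0 and 6 h, which was −0.65 for CCNE2, −1.77 for CDKN2C and 3.26 for CDKN1A. CCNE2 was at 12.7 and 13.8 FPKM in ΔCRE cells against 8.85 and 9.98 FPKM in WT cells (log2 fold change 0.45, SE 0.10, adjusted p = 0.0296, limma), CDKN2C at 21.1 and 22.0 FPKM against 17.0 and 15.7 FPKM (0.38, SE 0.079, adjusted p = 0.0200, limma), and CDKN1A at 108 and 102 FPKM against 129 and 125 FPKM (−0.27, SE 0.058, adjusted p = 0.0245, limma). For all 3 genes the ΔCRE and WT libraries did not overlap. These 3 of 10 members compare with 9.83% of all features called at 6 h, 3.62% higher and 6.22% lower. Groups did not overlap for 8 of the 10 members, which with 2 libraries a group was also so for 54.6% of all features. CCND1 (log2 fold change 0.19, 95% interval 0.03 to 0.36, adjusted p = 0.131) and CCNE1 (0.24, interval −0.01 to 0.48, adjusted p = 0.218) did not pass by limma, and the interval of CDK4 ran from −0.19 to 0.17. At 24 h CCNE2 alone passed, at 6.42 and 7.65 FPKM against 4.58 and 5.38 FPKM (0.42, SE 0.10, adjusted p = 0.0489, limma), 1 of 10 members where 6.33% of all features passed, 2.35% higher and 3.97% lower. Groups were apart for 6 of 10 members at 24 h and for 51.8% of all features. CCNE1, at 5.66 and 4.87 FPKM against 3.55 and 4.07 FPKM, had a log2 fold change of 0.38 at 24 h (95% interval 0.14 to 0.62, adjusted p = 0.0780, limma), and CDKN1A and CDKN2C had intervals from −0.16 to 0.10 and from −0.10 to 0.26.

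These calls were close to the threshold. All 3 of the 6 h were lost without WT 6 h replicate 1 (adjusted p = 0.197 for CCNE2, 0.158 for CDKN1A and 0.0702 for CDKN2C), without WT 6 h replicate 2 (0.0763, 0.0867 and 0.130) and without ΔCRE 6 h replicate 2 (0.169, 0.138 and 0.119), and CCNE2 and CDKN2C also without ΔCRE 6 h replicate 1 (0.0739 and 0.0649, limma). The 24 h call of CCNE2 held in 1 of 11 fits that left out a library, that without ΔCRE 0 h replicate 2, with an adjusted p between 0.0496 and 0.289 over all of them, and so was lost without WT 0 h, WT 6 h, WT 24 h, ΔCRE 6 h or ΔCRE 24 h replicate 1 or 2. In a fit of only the groups compared none of them passed either (adjusted p = 0.0740, 0.0693 and 0.0612 for CCNE2, CDKN1A and CDKN2C at 6 h and 0.165 for CCNE2 at 24 h). CCNE2 was also lost at both times without the filter (adjusted p = 0.0639 and 0.0905) and under TPM (0.0709 and 0.103), and at 24 h without the trend (0.0563). Of the 9 alternatives that left out no library, CCNE2 kept its call in 5 at 6 h and in 4 at 24 h. The lowest adjusted p among them was 0.0023 at 6 h and 0.0037 at 24 h (limma). CDKN1A and CDKN2C each kept their 6 h call in 7 of these 9. At an unadjusted p under 0.05 there were 4 of 10 members at 6 h, beside 24.0% of all features, and 3 of 10 at 24 h, beside 21.2%. With all 12 libraries no member passed at either time by limma, and at an unadjusted p under 0.05 there were then 0 members at 6 h and 1 at 24 h, CCNE1.

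Whether the course from 6 to 24 h differed between the genotypes was tested as an interaction. No member passed by limma, where 18 of all features (0.160%) did, and at an unadjusted p under 0.05 there were 4 of 10 members beside 6.98% of all features. Those were CCND1, with a difference of −0.36 in log2 (95% interval −0.59 to −0.13, adjusted p = 0.429), CDKN2C with −0.30 (−0.56 to −0.04, adjusted p = 0.646), CDKN1A with 0.23 (0.05 to 0.42, adjusted p = 0.606) and CCND3 with 0.19 (0.01 to 0.37, adjusted p = 0.690). CCND1 had the widest gap between the genotypes in its fall, from 159.9 to 69.6 FPKM in mean in ΔCRE cells and from 139.5 to 78.2 FPKM in WT cells. With all 12 libraries 0 members were at an unadjusted p under 0.05 for the interaction.

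At 0 h the single ΔCRE library that was kept lay near the WT libraries for every member, with differences of between 0.01 and 0.24 in log2(FPKM + 1) from the WT mean. CCND3 (47.0 FPKM, WT 40.4 and 38.9 FPKM) and CCND1 (108 FPKM, WT 88.7 and 96.8 FPKM) were the farthest, and CDK4, CDK6 and CDKN1B were inside the range of both WT libraries. Set against that library, ΔCRE cells at 6 h had 9.19 times the CDKN1A level, 1.97 times the CDK6 level and 1.48 times the CCND1 level, beside 10.2, 1.97 and 1.504 times in WT cells. CDKN2C went the other way, its 0 h level being 2.83 times that at 6 h in ΔCRE cells and 3.56 times in WT cells. CCND3 was at 1.07 times its 0 h level in ΔCRE cells at 6 h and at 1.37 times in WT cells. None of these differences was tested. The library labelled ΔCRE 0 h replicate 1 differed from the WT mean by between 0.17 and 1.61 in log2, with 4.37 FPKM of CCNE2, 66.9 FPKM of CCND1 and 41.7 FPKM of CDKN2C below both WT libraries, and 29.0 FPKM of CDKN1A and 40.6 FPKM of CDKN2D above them. The part that its gut epithelium markers play in these values was not tested.

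The pathway around these genes was read from 4 lists of genes. Among 26 other regulators of G1 and of entry into S phase 23 were tested, and in WT cells 2 rose and 7 fell at 6 h, where 23.3% of all features rose and 21.1% fell. At 24 h 1 rose and 12 fell, beside 26.5% and 28.2% of all features. Their median log2 fold changes were −0.06 and −0.30, beside −0.00 and −0.02 over all features. At 6 h the lowest called were E2F8 and E2F2 (both −0.84), an E2F repressor and an E2F activator, and the highest were E2F4 (0.32), a repressor E2F of resting cells, and CDK7 (0.29), the kinase that activates other CDKs. At 24 h E2F8 (−1.29) and SKP2 (−1.13), which marks CDKN1B protein for degradation, were the lowest, and CDK7 (0.29) was the only one that rose. CDK2, the kinase of the E-type cyclins, was at 42.8 ± 2.57 FPKM (SD, n = 2) at 0 h, 47.6 ± 2.09 FPKM at 6 h and 38.7 ± 1.44 FPKM at 24 h in WT cells, and RB1 at 15.4 ± 2.21, 14.01 ± 0.301 and 10.9 ± 0.0015 FPKM. From 6 to 24 h MYC (log2 fold change −1.0 in WT and −1.33 in ΔCRE cells) and CDC25A (−0.90 and −0.96), a phosphatase that activates CDK2, were the lowest of 15 and 13 regulators that fell, and CDKN1C (0.81 and 0.55), a Cip/Kip inhibitor, the highest of 2 and 2 that rose. Of all features 26.3% fell and 20.5% rose in WT cells, and 27.5% fell and 22.1% rose in ΔCRE cells.

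Genes that E2F factors switch on for S phase fell at 24 h almost without exception. Of 32 such genes 2 rose and 13 fell at 6 h in WT cells, where 21.1% of all features fell, and their median change in log2 was −0.13. At 24 h 0 rose and 31 fell, with a median of −0.54, where 28.2% of all features fell. At 6 h PRIM1 (−0.63), a DNA primase subunit, and CCNA2 (−0.48), cyclin A2, were the lowest, and MCM7 (0.25) and CDC45 (0.25), parts of the replicative helicase, the highest. At 24 h CCNA2 (−1.30) and RRM2 (−1.06), a subunit of ribonucleotide reductase, were the lowest. TPM and quantile normalization raised the number that fell at 6 h to 24 and 20 and left 31 and 30 at 24 h. They also moved the values of all 11256 features. Falls at 6 h went from 2373 to 3513 under TPM and to 2926 with quantile normalization. At 24 h they went from 3173 to 3019 and 3364. The median of all features at 6 h went from −0.00 to −0.12 and −0.05. Of 25 mitosis genes 2 rose and 19 fell at 6 h (median −0.33) and 25 fell at 24 h (median −0.72). The lowest were TOP2A (−0.93) and KIF20A (−0.84) at 6 h and TOP2A (−1.55) and KIF11 (−1.19) at 24 h. AURKB (0.39) and UBE2C (0.33) were the mitosis genes that rose at 6 h. From 6 to 24 h 25 E2F targets fell and 2 rose in WT cells, where 26.3% of all features fell and 20.5% rose. In ΔCRE cells 27 fell and 2 rose, where 27.5% of all features fell and 22.1% rose. Between these times 24 mitosis genes fell in each genotype. With all 12 libraries 1 E2F target and 2 mitosis genes fell at 6 h, and 13 and 10 at 24 h. Of all 11256 features 273 fell at 6 h and 516 at 24 h in that fit.

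Among 22 tested p53 target genes, a class to which CDKN1A belongs, calls ran in both directions. In WT cells 7 rose and 6 fell at 6 h, where 23.3% of all features rose and 21.1% fell. At 24 h 8 rose and 10 fell, beside 26.5% and 28.2% of all features. Their medians were 0.21 and 0.01 in log2. The highest at 6 h were PLK3 (1.82) and GADD45A (1.24), which respond to stress, and the lowest RRM2B (−0.92) and DDB2 (−0.75), which serve DNA repair. From 6 to 24 h 3 rose and 7 fell in WT cells, beside 20.5% and 26.3% of all features. In ΔCRE cells 4 rose and 9 fell, beside 22.1% and 27.5% of all features. At 24 h BBC3 (1.22) and SESN2 (1.19) were the highest, and RRM2B (−0.73) and PMAIP1 (−0.65) the lowest. All of these were below the 3.26 of CDKN1A at 6 h in size.

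Between ΔCRE and WT cells 9.83% of all features passed at 6 h (3.62% higher, 6.22% lower) and 6.33% at 24 h (2.35% higher, 3.97% lower). At 6 h 2 of the 23 other regulators (E2F5 with 0.54 and TFDP1 with 0.21), 1 of 32 E2F targets (RRM2 with 0.35), 4 of 25 mitosis genes and 3 of 22 p53 targets were higher in ΔCRE cells. In turn 2 mitosis genes were lower. The mitosis genes included CDK1 (0.50) and CCNB2 (0.36) among the higher and MKI67 (−0.33) and AURKB (−0.24) as the lower, and the p53 targets GADD45A (0.73) and SESN2 (0.48). At 24 h RRM2 (0.29), 4 of 25 mitosis genes with CDK1 (0.37) and CENPF (0.29) at their head, and DDB2 (0.39) were higher and AURKB (−0.35) was lower. None of the other regulators passed by limma, with 4 of 23 at an unadjusted p under 0.05, beside 21.2% of all features. With all 12 libraries few of these genes had an unadjusted p under 0.05 by limma. At 6 h these were 1 of 23 other regulators, 0 of 32 E2F targets, 2 of 25 mitosis genes and 0 of 22 p53 targets. At 24 h the numbers were 0, 0, 2 and 0. In that fit 588 of all 11256 features were so at 6 h and 446 at 24 h. Of the 4 lists no gene passed for the interaction by limma, where 0.160% of all features did. Between 1 and 4 genes a list were at an unadjusted p under 0.05, beside 6.98% of all features.

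**Figure D4:**
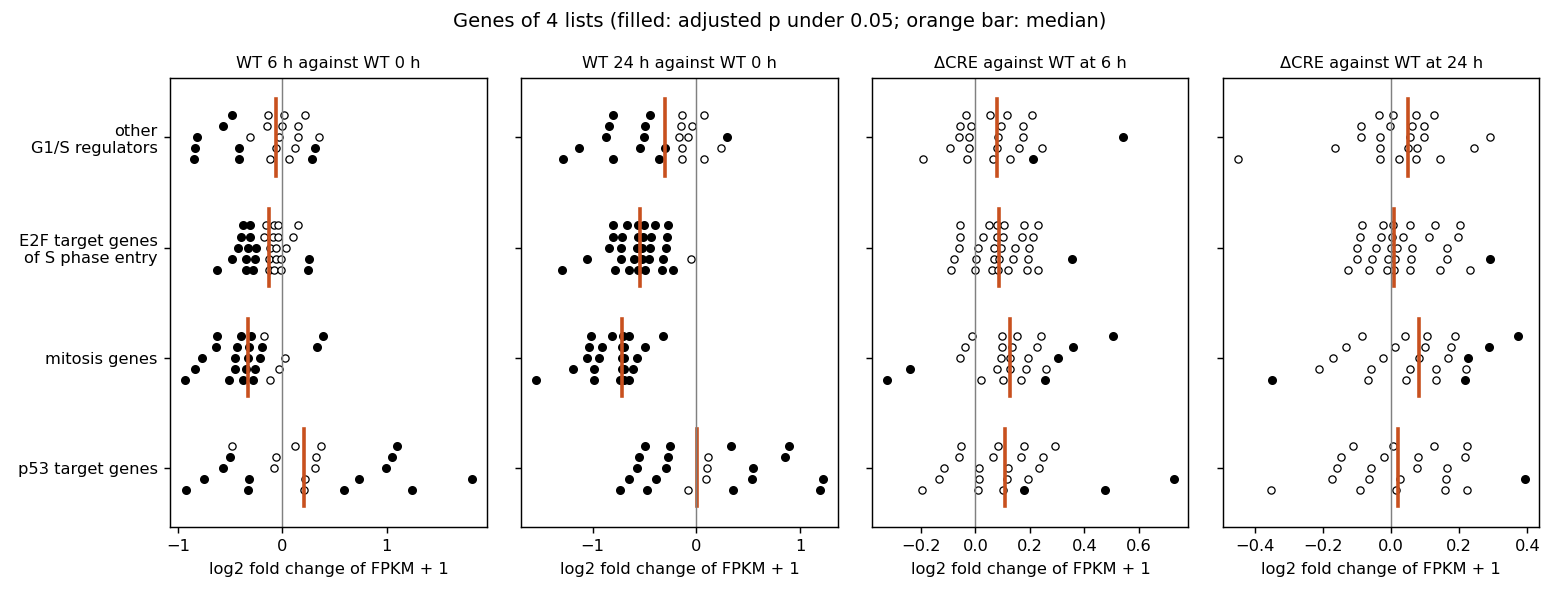
Log2 fold change of FPKM + 1 (horizontal axes, which differ in range between panels) for each tested gene of the 4 lists (vertical axis, points spread for sight), filled where limma's adjusted p was under 0.05, with an orange bar at the median. At 24 h in WT cells 31 of 32 E2F targets and 25 of 25 mitosis genes lie left of 0 and are filled, while the p53 targets lie on both sides.

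For the 3 members with the widest range of group means, the features whose profile over the 11 libraries was most like theirs were sought, by the root mean square difference of log2(FPKM + 1) after centring each profile on its mean. The profile of CDKN1A was nearest to those of NFKB2 (0.20), TNIP1 (0.22) and NFKBIA (0.24), of which NFKBIA went from 28.2 FPKM at 0 h to 206 FPKM at 6 h and 76.2 FPKM at 24 h in WT cells. That of CDKN2C was nearest to RAB30 (0.15), SFTA3 (0.16) and MAP2K6 (0.17), and that of CCNE2 to ZFP36L2 (0.15), CDK1 (0.15) and F2RL1 (0.16). CDK1, like CCNE2, stood higher in ΔCRE than in WT cells at both times, at 106 against 74.7 FPKM at 6 h and 62.7 against 48.2 FPKM at 24 h. CDK1 was chosen for its likeness to CCNE2 over these same libraries, so this shared difference is no separate result. These are descriptions over 11 libraries that share 2 genotypes and 3 times, with no test.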

How the data were processed

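RNA was sequenced from 12 libraries of MDA-MB-231 cells, grouped by the genotype, time and replicate number of their labels. Per the labels and the methods, the authors aligned reads with TopHat (hg19), ran Cufflinks and deposited FPKM values for 24331 features, of which 405 name more than 1 gene. The annotation, any scaling between libraries and the use of strand are not given in the sources used here. The names of 2 columns hold a digit in place of a letter and were matched to the only labels left.

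On log2(FPKM + 1), limma 3.58.1 in R 4.3.3 (lmFit, eBayes with trend) fitted 6 groups and 11 libraries in 1 model with 5 residual degrees of freedom. P-values were adjusted by Benjamini-Hochberg over the 11256 features with a mean of at least 1 FPKM, in each of 7 comparisons. They measure the spread between libraries that the methods of the study call biological replicates. On simulated data for ΔCRE against WT at 6 h over 11256 features, 61.5% of 200 changes of 0.5 in log2 and 95.5% of changes of 1 were recovered, with 4.65% and 5.91% false calls. The members, the gene lists and the choice to show ΔCRE 0 h replicate 1 apart were made with earlier results of these data known. All 10 members are named, and per list and comparison up to 2 called genes with the highest and 2 with the lowest fold change. Deviations of same-numbered libraries from their groups had correlations across features between −0.07 and 0.20, and the numbers were not taken as pairs. Such values do not exclude a shared deviation in single genes. Alternatives were all 12 libraries, a pseudocount of 0.1, no filter, a mean of at least 5 FPKM, quantile normalization, TPM, a fit of only the groups compared, eBayes without trend, a block for the replicate number, and leaving out each library in turn. Sequences were matched by symbol in Python 3.11.15 with pandas 2.3.3.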

Additional observations from a re-analysis of the deposited data

Results flagged for a closer look

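The library labelled ΔCRE 0 h replicate 1 entered only the alternative fit of all 12 libraries, and some of its values were more than 1.5 times the highest WT 0 h library. It held 29.0 FPKM of CDKN1A, where the WT 0 h libraries held 11.96 and 12.8 FPKM, and 40.6 FPKM of CDKN2D, where they held 20.9 and 25.7 FPKM. CCND2, listed at 0 in both WT 0 h libraries, was at 4.10 FPKM, and CDKN2A and CDKN2B, listed at 0 in the other 11 libraries, were at 0.0704 and 0.0373 FPKM. TSPAN31, which shares its interval with CDK4, was at 11.9 FPKM against 4.17 and 4.94 FPKM. The same library held 4421 FPKM of summed gut epithelium markers.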

How the results depend on the processing

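Of the 630 values that the members had under 9 alternatives, 580 kept their direction and their side of the threshold, 33 lost a call, 12 gained one and 5 turned in sign, none of them called. With all 12 libraries the spread between the ΔCRE 0 h libraries enters the estimate for every comparison. In the order WT 6 h against 0 h, WT 24 h against 0 h, WT 24 h against 6 h, ΔCRE 24 h against 6 h, ΔCRE against WT at 6 h and at 24 h, members called then went from 8, 8, 6, 5, 3 and 1 to 5, 4, 1, 2, 0 and 0, features from 4993, 6151, 5267, 5586, 1107 and 712 to 903, 1285, 636, 911, 32 and 19, and features of the interaction from 18 to 0. A fit of only the groups compared called 0 members and 364 features at 6 h, 0 members and 132 features at 24 h, and 9 features for the interaction, and the cause was not tested. No filter, TPM and eBayes without trend left 0 members at 24 h, and quantile normalization and eBayes without trend gave 11 and 8 features for the interaction. Under TPM the share of rises among called features went from 52.5% to 35.0% for WT 6 h against 0 h, from 43.7% to 64.3% for WT and from 44.6% to 60.7% for ΔCRE 24 h against 6 h, and from 37.2% to 24.7% for ΔCRE against WT at 24 h. It moved the median of all features from −0.00 to −0.12 for WT 6 h against 0 h and from −0.04 to 0.07 for WT 24 h against 6 h, and relative to the median the members differed from the reported values by at most 0.034 and 0.039. CDK4 in WT cells at 6 h against 0 h turned to −0.032 with quantile normalization and −0.028 under TPM, CCNE1 in ΔCRE cells between 6 and 24 h to 0.0014 under TPM, and CCNE2 in the interaction to 0.00092 with a pseudocount of 0.1 and 0.0053 with quantile normalization.

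Leaving out 1 library gave between 0 and 3 members and between 325 and 1108 features at 6 h, between 0 and 1 member and between 165 and 710 features at 24 h, and between 3 and 21 features for the interaction. Of 770 such values of the members 34 lost a call, 5 gained one and 19 turned in sign, none of them called. The ranges of those that turned were −0.091 to 0.17 for CDKN2D in WT cells between 6 and 24 h, −0.19 to 0.027 for CCNE1 and −0.059 to 0.081 for CDKN2C in ΔCRE cells between 6 and 24 h, −0.087 to 0.065 for CDK4 at 6 h, −0.091 to 0.053 for CDK4, −0.13 to 0.028 for CDK6 and −0.069 to 0.0082 for CDKN1A at 24 h, and −0.084 to 0.068 for CDK4, −0.14 to 0.084 for CCNE2 and −0.18 to 0.095 for CDKN1B in the interaction. Where 1 library remained in a group, it was assumed to vary like the other groups. With the replicate number as a block, 1805 features passed at 6 h and 1407 at 24 h, 26 for the interaction, 3 and 1 members at 6 and 24 h as before, and the only other calls to move among the members were gains of CDKN2D at 6 h and 24 h, CDK4 at 24 h against 0 h and CCND3 between 6 and 24 h in WT cells. The depth of the libraries was estimated only relative to each other.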
